A study of Mus musculus with 11 samples.

Results

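Mitochondrial ribosomal proteins are described here in mouse mammary tumour cells at 3 stages of a cancer driven by Wnt1. The genes were taken by name: every measured gene whose symbol is Mrpl or Mrps followed by a number, pseudogene symbols left out, which gave 76 of 23835 named genes. Of these, 48 were Mrpl genes, named for the large subunit, and 28 were Mrps genes, named for the small subunit. The rule used no measured value, but the family was chosen with earlier results of these data known. Mrpl27 and Mrps18c were not analysed here.

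Mitochondria keep a small genome of their own, and the proteins it encodes are subunits of the respiratory chain and of ATP synthase. They are made by the mitochondrial ribosome, a particle of a large and a small subunit whose RNA comes from the mitochondrial genome and whose proteins come from nuclear genes, are made in the cytosol and are imported. Many of those proteins descend from bacterial ribosomal proteins, and the others, called mitochondria-specific here, mostly have no bacterial counterpart. Mrps18a and Mrps18b were counted among the mitochondria-specific ones, although they are relatives of bacterial S18. By that division 44 of the genes were of bacterial origin and 31 mitochondria-specific. Mrps18a and Mrps30 carry small-subunit names, but their products sit in the large subunit, and the product of Mrps36 is now known as a subunit of the oxoglutarate dehydrogenase complex. Where the subunits are compared by structure below, 50 genes belonged to the large and 25 to the small subunit.

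All cells carried MMTV-rtTA;TetO-Wnt1, a transgene pair in which the MMTV promoter, active in mammary epithelium, drives a transactivator that turns on Wnt1 while doxycycline is given. They were labelled with H2B-eGFP, a green fluorescent histone, grown orthotopically in female nu/nu mice, which lack a thymus and so most T cells, and isolated as cells positive for the fluorescent protein. There were 4 arrays of untreated primary tumour cells, 3 arrays of residual lesion cells collected 28 days after doxycycline was withdrawn, and 4 arrays of recurrent tumour cells, whose time point the labels do not give. The residual and the recurrent groups are both labelled as Wnt1 inhibition. Whether replicate arrays stem from different animals is not in the labels, and a p-value therefore reflects only how these samples scatter, which may be technical.

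Each array gave 1 log2 signal per gene, on which a difference of 1 is a doubling. The 95th percentile of 1066 olfactory receptor genes, a class not known in mammary cells, served as the background of an array. It was 4.34 to 4.38 on the residual, 4.03 to 4.09 on the recurrent and 3.96 to 4.02 on the primary arrays. The interquartile range over all genes was 3.57 to 3.60, 3.71 to 3.78 and 3.77 to 3.84 in that order. Residual arrays thus had the highest background and the narrowest range. The part of this in the differences was not tested, beyond the rescalings given at the end. Of the 76 genes, 72 read above background on all 11 arrays and none read below it on all. The mean signals of the genes in primary cells ran from 3.50 to 11.64, and signals of different probe sets are not compared with each other. Of 7 markers of mammary epithelium, 4 to 6 were above background on an array. Krt8, Krt18 and Cdh1 were above it on all 11 arrays, while Epcam, another such marker, was above it on 1 array. Pearson's r between arrays, over genes that are not independent, was 0.972 to 0.977 within the residual, 0.968 to 0.980 within the recurrent and 0.983 to 0.989 within the primary group. The small number of arrays sets the precision.

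The promoters of 4 members come first because these genes return below: Mrpl22 and Mrps18a in residual cells, Mrpl32 in recurrent against residual cells, and Mrps26 in both residual and recurrent cells against primary cells. The sequences are RefSeq's for GRCm38.p6, from 150 bases before to 30 after the start site, 5′ to 3′ on the strand of the gene. Capitals mark matches on either strand to the motifs of NRF1 (GCGCANGCG), of the ETS family (CCGGAAG), to which the GABP factor belongs, and of YY1 (AANATGGCG), all factors long studied at promoters of nuclear genes for mitochondrial proteins.
Mrpl22, plus strand, chr11:58171514-58171693, ETS then NRF1: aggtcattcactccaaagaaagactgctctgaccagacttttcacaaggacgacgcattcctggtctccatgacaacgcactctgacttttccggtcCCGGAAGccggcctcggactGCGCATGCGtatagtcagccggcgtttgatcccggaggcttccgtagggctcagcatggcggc
Mrps18a, plus strand, chr17:46110854-46111033, ETS then YY1: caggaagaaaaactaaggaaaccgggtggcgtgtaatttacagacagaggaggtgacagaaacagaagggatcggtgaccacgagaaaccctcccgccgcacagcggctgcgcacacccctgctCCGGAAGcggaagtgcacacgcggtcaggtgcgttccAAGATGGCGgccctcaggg
Mrpl32, minus strand, chr13:14613008-14613187, NRF1 on both strands in 1 overlapping run, then NRF1 again: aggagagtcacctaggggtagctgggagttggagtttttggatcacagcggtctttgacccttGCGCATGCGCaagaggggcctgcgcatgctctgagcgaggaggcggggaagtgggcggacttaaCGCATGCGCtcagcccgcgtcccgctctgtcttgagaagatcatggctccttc
Mrps26, plus strand, chr2:130563607-130563786, ETS then overlapping NRF1: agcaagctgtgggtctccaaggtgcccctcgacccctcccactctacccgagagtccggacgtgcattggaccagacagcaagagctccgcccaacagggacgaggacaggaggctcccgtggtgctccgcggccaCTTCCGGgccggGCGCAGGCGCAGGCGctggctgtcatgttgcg

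RefSeq gave 73 promoters for 67 of the 76 genes, each searched on both strands from 250 bases before to 50 after the start site. The ETS motif was in 32.9% of these promoters, against 8.86% of all 32851 promoters of the table and 16.4% of those of genes above background on at least 3 arrays. For the NRF1 motif the shares were 21.9%, against 6.25% and 12.3%, and for the YY1 motif 13.7%, against 2.38% and 4.59%. Other motifs lay nearer to the promoters of genes above background: the E-box (CACGTG) was in 8.22%, against 9.67%, the GC box (GGGCGG) in 52.1%, against 60.6%, and the TATA motif (TATAAA) in 6.85%, against 7.69%. The median GC content was 58.3%, against 60.3%. A match describes letters in a window and says nothing of binding.

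The first comparison set residual cells, which remained after Wnt1 was switched off, against primary tumour cells. Mitochondrial ribosomal protein genes were lower in residual cells: 29 of 76 fell at an adjusted p under 0.05 in limma, and none was called higher. Over all 23835 genes 7.61% were called lower and 4.81% higher. Of the 76 differences 72 were negative, and their median was -0.58 on the log2 scale, a 1.49-fold lower level, with quartiles of -0.78 and -0.42, against a median of 0.03 over all genes and -0.06 over the 13712 genes above background on at least 3 arrays. At an unadjusted p under 0.05, 55 of the genes were lower and 1 higher, where 13.9% of all genes were lower and 11.9% higher. The groups did not overlap for 52 genes, all lower in residual cells, where 13.7% of all genes were lower and 11.1% higher without overlap. In these bulk samples fewer cells of a type and less RNA per cell cannot be told apart.

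**Figure D1:**
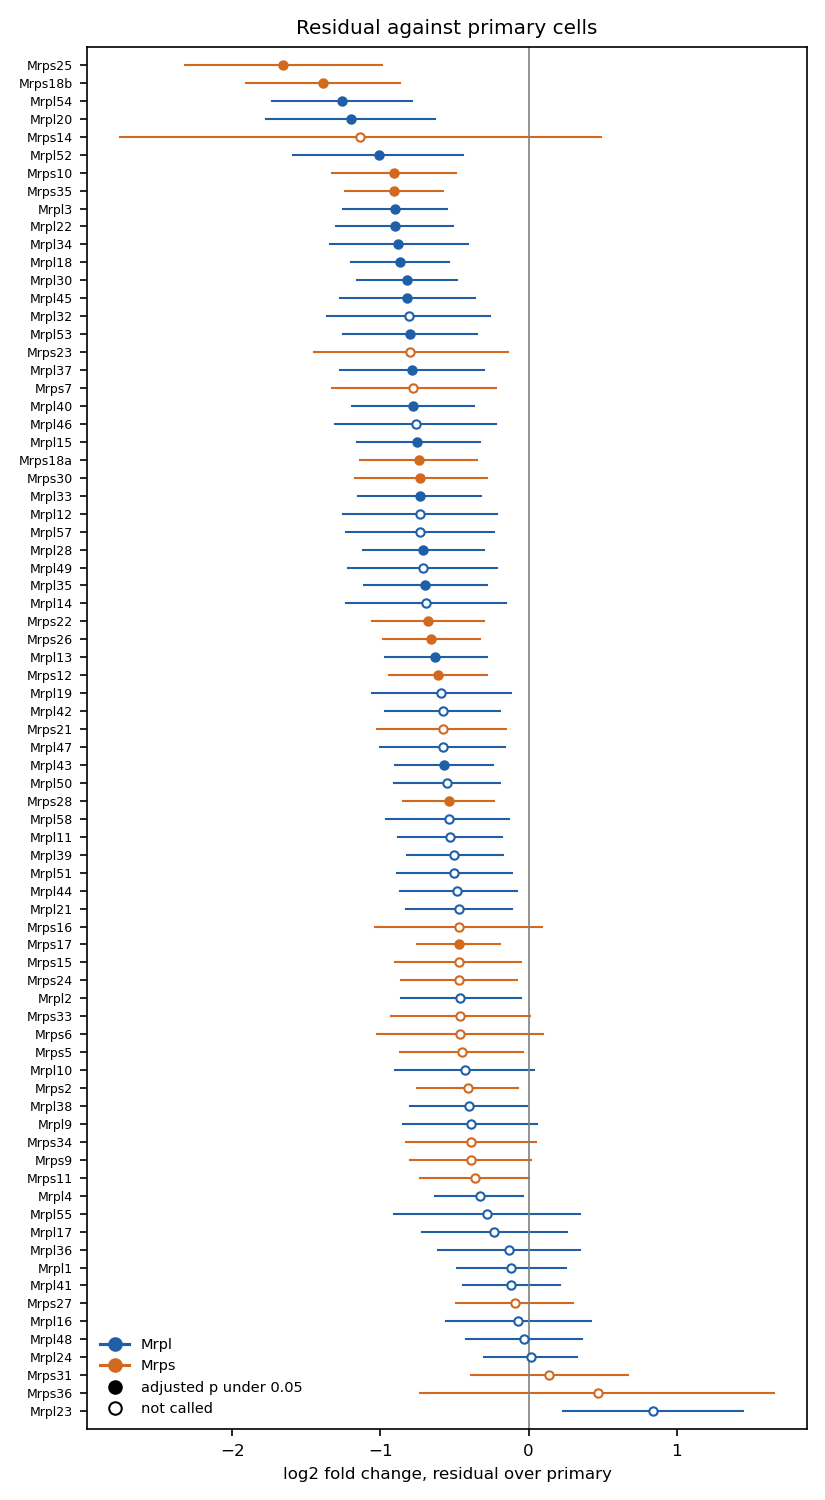
Log2 fold change of residual over primary cells (x axis) for each of the 76 genes (y axis, most negative at the top), with 95% intervals from limma. Mrpl genes are blue and Mrps genes orange, filled where the adjusted p was under 0.05: the 29 filled points all lie left of 0, and 4 of the 76 points lie right of it.

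The 29 called genes were 1.39 to 3.16-fold lower, with adjusted p from 0.00255 to 0.0381, and in each the residual arrays read below all primary arrays. Both subunits had called genes. Of the Mrpl genes 18 of 48 fell, with a median difference of -0.59, and of the Mrps genes 11 of 28 fell, with a median of -0.51. Assigned by structure, 20 of 50 large-subunit genes and 9 of 25 small-subunit genes fell, with medians of -0.61 and -0.47. The large minus small difference of medians was -0.08 by symbol and -0.13 by structure, beside an SD of 0.097 for that difference between arrays of a group, and it was not tested. Mitochondria-specific proteins had 14 of 31 genes called lower, with a median of -0.68, and proteins of bacterial origin 15 of 44, with a median of -0.54, a difference that was likewise not tested.

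In the small subunit the largest difference was that of Mrps25, which encodes a mitochondria-specific protein. Mrps25 read 7.93, 6.29 and 7.27 on the residual arrays, against 8.84, 8.90, 8.74 and 8.80 on the primary arrays. The primary arrays lay close together and the residual arrays were spread widely below them, residual 2 lowest, which gave a log2 fold change of -1.66 ± 0.30 (SE, adjusted p = 0.00436). Mrps18b, one of several mammalian relatives of bacterial S18 and counted here as mitochondria-specific, read 6.76, 6.49 and 7.33 on the residual arrays, against 8.21, 8.63, 7.90 and 8.26 on the primary arrays. It was 2.62-fold lower, with no overlap (adjusted p = 0.00298).

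The head of the small subunit, which swivels as tRNAs move through the ribosome, held 8 of the genes, of which Mrps10 and Mrps35 were called. Mrps35, a mitochondria-specific protein of the head, read 6.55, 6.33 and 6.52 on the residual arrays, against 7.37, 7.50, 7.30 and 7.35 on the primary arrays, and had the lowest adjusted p among all members, 0.00255, at a 1.88-fold lower level. Mrps10, related to bacterial S10, averaged 4.49 ± 0.21 on the residual and 5.40 ± 0.21 on the primary arrays (SD, n = 3 and 4), also 1.88-fold lower and without overlap (adjusted p = 0.00969). The residual signals of Mrps10 were near background, and it was above it on 10 of 11 arrays. Mrps14, another protein of the head, varied widely within both groups: it read 6.35, 4.49 and 3.78 on the residual arrays and 6.96, 5.98, 6.44 and 4.66 on the primary arrays. Those groups overlapped, and its difference of -1.14 ± 0.74 (SE) had an adjusted p of 0.38.

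Further Mrps genes differed by less. Mrps18a, whose promoter is printed above, read 8.69, 8.41 and 8.64 on the residual arrays, against 9.05, 9.77, 9.07 and 9.40 on the primary arrays (log2 fold change -0.74, adjusted p = 0.0196). Mrps30, the other gene of a large-subunit protein with a small-subunit name, read 5.48, 5.45 and 4.63 on the residual arrays, against 6.06, 6.12, 5.68 and 5.79 on the primary arrays (-0.73, adjusted p = 0.0365), with residual 3 apart from the other residual arrays. Both groups stayed separate in each of the 2 genes. Mrps22 and Mrps26, both mitochondria-specific, fell 1.60-fold and 1.57-fold (adjusted p = 0.0243 and 0.0139).

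In the large subunit Mrpl54, a mitochondria-specific protein, had the largest difference. Mrpl54 read 8.67, 8.50 and 8.84 on the residual arrays, against 9.92, 10.38, 9.79 and 9.61 on the primary arrays. The residual arrays lay close together, below all primary arrays, of which primary 2 was the highest (2.39-fold lower, adjusted p = 0.00295). Mrpl20, a relative of a bacterial protein of early large-subunit assembly, read 7.19, 6.76 and 7.24 on the residual arrays, against 8.03, 8.57, 8.24 and 8.22 on the primary arrays (2.29-fold lower, adjusted p = 0.0114). Among the residual and primary arrays, residual 2 was the lowest and primary 2 the highest for Mrpl20, as for Mrpl54.

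The peptidyl transferase centre, where peptide bonds form, is lined by RNA and reached by the proteins of Mrpl2, Mrpl3 and Mrpl16. Mrpl3 read 7.50, 6.97 and 7.22 on the residual arrays, against 8.05, 8.15, 8.14 and 8.20 on the primary arrays, a 1.87-fold lower level (adjusted p = 0.00349). Mrpl2 had a difference of -0.46, without overlap but with an adjusted p of 0.143. Mrpl16 read 8.10, 8.06 and 7.75 on the residual arrays and 8.06, 8.09, 8.03 and 7.99 on the primary arrays, groups that overlapped, with a 95% interval of the log2 fold change from -0.56 to 0.42. Mrpl3 was thus the gene called among these 3, and differences between the genes were not tested.

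Along the tunnel by which the new chain leaves, 2 of 8 genes fell. Mrpl22, whose protein lines the tunnel and whose promoter is printed above, read 6.36, 6.22 and 6.47 on the residual arrays, against 7.30, 7.42, 7.19 and 7.09 on the primary arrays (1.87-fold lower, adjusted p = 0.00736). Mrpl45, whose protein sits at the tunnel exit and ties the ribosome to the inner membrane, read 5.07, 4.93 and 5.04 on the residual arrays, against 5.63, 6.10, 5.89 and 5.71 on the primary arrays (1.76-fold lower, adjusted p = 0.0238). In both genes the residual arrays stood together and below every primary array. Mrpl23, at the tunnel exit, had the largest positive difference, 0.84 ± 0.28 (SE, adjusted p = 0.0733), but it read above background on 3 arrays of 11. Its values were 4.92, 3.85 and 4.26 on the residual arrays and 3.19, 4.04, 3.13 and 3.64 on the primary arrays, which overlapped, and the reference lists 1 pseudogene copy of it.

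The central protuberance, a knob at the top of the large subunit that faces the small subunit and the tRNAs, had 3 of 7 genes called. Mrpl18, related to the bacterial protein that binds 5S RNA, read 8.36, 8.08 and 8.44 on the residual arrays, against 9.10, 9.35, 9.16 and 9.05 on the primary arrays (1.83-fold lower, adjusted p = 0.00308). Mrpl52 averaged 9.72 ± 0.31 on the residual and 10.73 ± 0.27 on the primary arrays (SD, n = 3 and 4, adjusted p = 0.0271 in limma). Mrpl40 averaged 7.30 ± 0.25 on the residual and 8.08 ± 0.29 on the primary arrays (SD, n = 3 and 4, adjusted p = 0.0178 in limma). Mrpl52 and Mrpl40 are mitochondria-specific. The stalks of the large subunit had none of 4 genes called and 2 of 4 lower at an unadjusted p under 0.05. Mrpl12, a stalk protein also known in human cells to bind the mitochondrial RNA polymerase, differed by -0.73 (adjusted p = 0.0678), Mrpl11 by -0.53 (adjusted p = 0.0523) and Mrpl10 by -0.43 (adjusted p = 0.242).

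Outside these sites, Mrpl34 and Mrpl30, relatives of bacterial L34 and L30, fell 1.84-fold and 1.77-fold (adjusted p = 0.0194 and 0.00542). Mrpl30 read 10.26, 9.86 and 10.11 on the residual arrays, against 10.67, 11.26, 10.81 and 10.85 on the primary arrays. Its residual arrays were all below its primary arrays, and primary 2 was the highest. Besides Mrpl23, the positive differences were those of Mrps36 (0.47), Mrps31 (0.14) and Mrpl24 (0.02), none of them called. Mrps36, not a ribosomal protein by present knowledge, read 6.57, 5.13 and 4.66 on the residual arrays and 5.81, 5.62, 4.72 and 3.78 on the primary arrays, with a 95% interval from -0.73 to 1.66, and the reference lists 3 pseudogene copies of it.

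**Figure D2:**
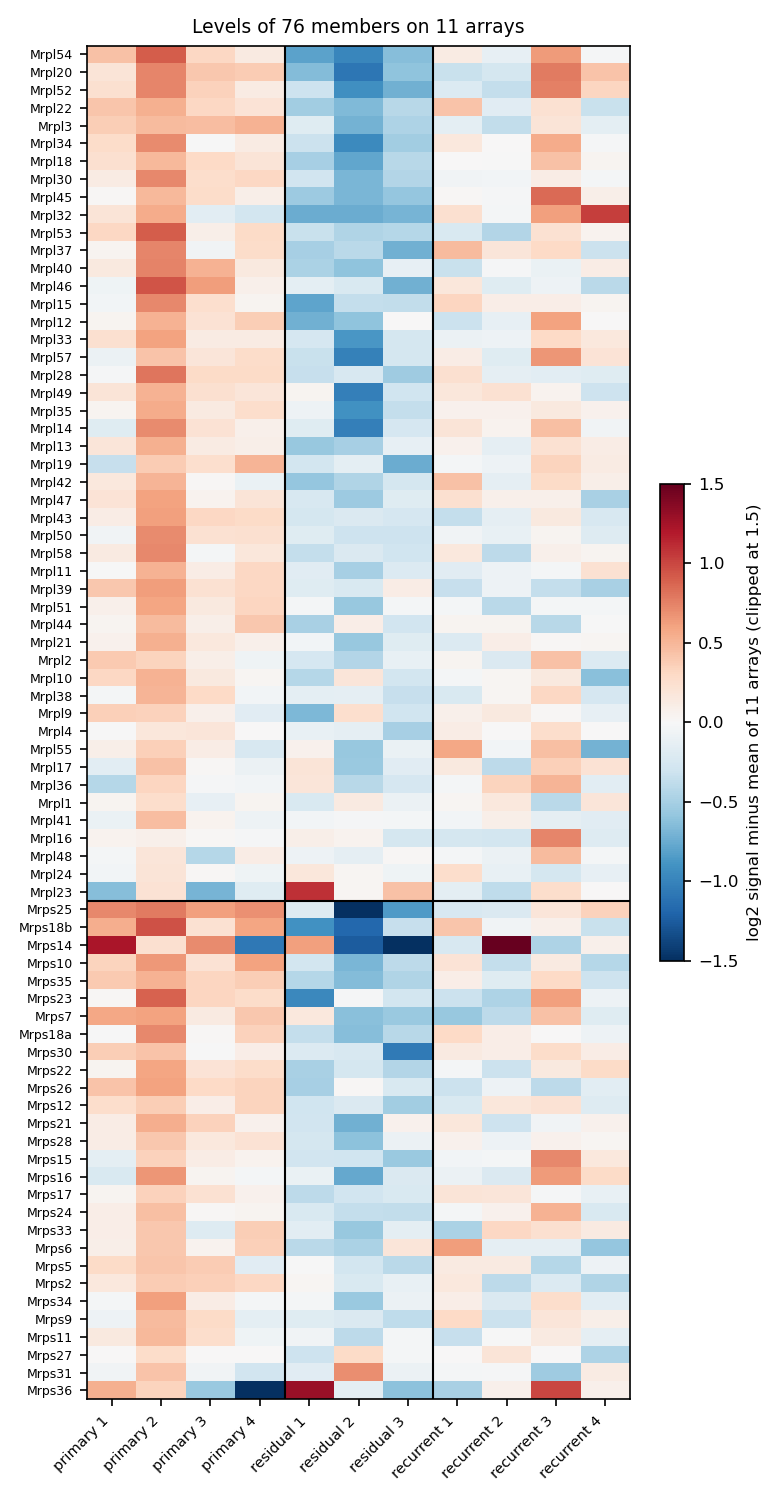
Log2 signal minus the mean of the 11 arrays for each of the 76 genes (rows, Mrpl above and Mrps below the line, each ordered by residual against primary change) on each array (columns, by stage), clipped at 1.5. Residual columns are mostly blue and primary columns mostly red, with primary 2 red in nearly all rows and a few rows at the bottom of each block without this pattern.

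The primary array numbered 2 stood apart for this gene family. On it 75 of 76 genes read above the mean of the other primary arrays, by a median of 0.38, while over all genes the share was 51.4%, with a median of 0.01. All 48 Mrpl genes and 27 of 28 Mrps genes were above. Without primary 2, 17 genes were called in residual against primary cells, 16 of them among the 29 and the other one the dim Mrpl23, called higher, and the median difference was -0.48. The count was 19 without residual 1, 16 without residual 2 (of which 1, Mrpl23, higher) and 19 without primary 4. After a second quantile normalization of the arrays 14 genes were called, all among the 29, with a median of -0.43. Mrpl3, Mrpl18, Mrpl22, Mrpl30, Mrpl54, Mrps10, Mrps18b, Mrps25 and Mrps35 were called under every alternative tried, the threshold of 0.01 included.

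Array by array, the median of the 76 genes lay 0.53, 0.64 and 0.53 below the primary mean on the 3 residual arrays. On the recurrent arrays it lay 0.17, 0.30, 0.10 and 0.27 below, and on the primary arrays it differed from their own mean by -0.11, 0.28, -0.07 and -0.09. All residual arrays were therefore below all recurrent arrays in this median. The recurrent and primary arrays overlapped, recurrent 3 at a median of -0.10 lying beside primary 1 at -0.11.

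**Figure D3:**
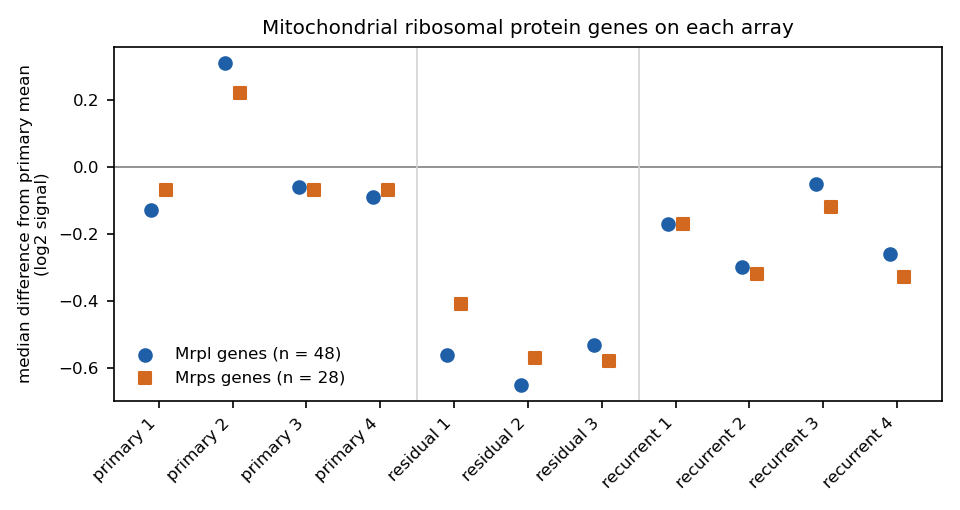
Median difference in log2 signal from the primary mean (y axis) over the 48 Mrpl genes (circles) and the 28 Mrps genes (squares) on each of the 11 arrays (x axis, by stage). The residual arrays sit lowest, between -0.65 and -0.41, and primary 2 highest, at 0.31 and 0.22.

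The second comparison set recurrent tumour cells against residual cells, which share the label of Wnt1 inhibition. The large-subunit genes Mrpl32, Mrpl18, Mrpl54 and Mrpl45 rose, 4 of 76, and none was called lower (limma, adjusted p under 0.05). Over all genes 3.58% were called higher and 2.19% lower, so the share of these genes called, 5.26%, was near the background. The differences as a whole were positive for 69 of 76 genes, with a median of 0.33, against -0.03 over all genes. At an unadjusted p under 0.05, 30 genes were higher and 0 lower, where 10.2% of all genes were higher and 9.52% lower. The groups did not overlap for 25 genes, all higher in recurrent cells, where 8.18% of all genes were higher and 7.32% lower without overlap.

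Mrpl32, whose protein is trimmed by the m-AAA protease of the inner membrane before it is built in, read 6.85, 6.58, 7.23 and 7.65 on the recurrent arrays, against 5.87, 5.87 and 5.91 on the residual arrays. Residual arrays were nearly level and every recurrent array lay above them, a 2.29-fold higher level (log2 fold change 1.20 ± 0.25, SE, adjusted p = 0.018). Its primary arrays read 6.80, 7.17, 6.45 and 6.34, and residual against primary it differed by -0.81 (adjusted p = 0.0595). Mrpl54 read 9.60, 9.35, 10.11 and 9.46 on the recurrent arrays, against the residual values given above, a 1.95-fold higher level (adjusted p = 0.0235). Mrpl18 read 8.87, 8.86, 9.30 and 8.90 on the recurrent arrays, a 1.61-fold higher level than in residual cells (adjusted p = 0.0207).

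Mrpl45 read 5.63, 5.60, 6.47 and 5.71 on the recurrent arrays, 1.79-fold above residual cells (adjusted p = 0.0368). One array, recurrent 3, was far above the other recurrent arrays, which read like the lowest primary arrays. In the small subunit no gene was called in recurrent against residual cells, and 11 of 28 were higher at an unadjusted p under 0.05. The 2 with the smallest p were Mrps18b, at 0.84 (adjusted p = 0.0647), and Mrps30, at 0.66 (adjusted p = 0.0861), both without overlap. The medians of the subunits were 0.31 for Mrpl and 0.34 for Mrps genes. None of the 4 calls held under every alternative: without residual 2 no gene was called, without residual 1 there were 2, and with genes below background left out there were 7.

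The third comparison set recurrent against primary cells. The median difference was -0.20, and 63 of 76 differences were negative and 13 positive. Mrpl39 and Mrps26 were called lower and none was called higher (limma, adjusted p under 0.05), where 0.986% of all genes were lower and 0.818% higher. At an unadjusted p under 0.05, 17 genes were lower and 0 higher, where 7.70% of all genes were lower and 5.87% higher. The groups did not overlap for 11 genes, all lower, beside 5.38% of all genes lower and 3.64% higher. Both calls were lost without recurrent 1, recurrent 3, recurrent 4, primary 1, primary 2 or primary 4, and 1 of them without residual 3 or primary 3. Without recurrent 1 another gene, Mrps2, was called lower, named here after its values were seen. Without primary 2 the differences were negative for 53 and positive for 23 genes, with a median of -0.11.

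Mrpl39, a mitochondria-specific protein of the large subunit, read 8.76, 9.03, 8.74 and 8.61 on the recurrent arrays, against 9.51, 9.73, 9.33 and 9.41 on the primary arrays (log2 fold change -0.71 ± 0.14, SE, adjusted p = 0.0261). Its residual arrays read 8.92, 8.87 and 9.21, also all below the primary arrays (-0.50, adjusted p = 0.0501). Mrps26 read 7.35, 7.59, 7.27 and 7.51 on the recurrent arrays, against 8.09, 8.27, 7.97 and 8.0 on the primary arrays (-0.65 ± 0.14, SE, adjusted p = 0.0387). For Mrps26 the residual arrays, at 7.17, 7.68 and 7.44, covered the recurrent range, and its mean was 7.43 in both recurrent and residual cells.

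**Figure D4:**
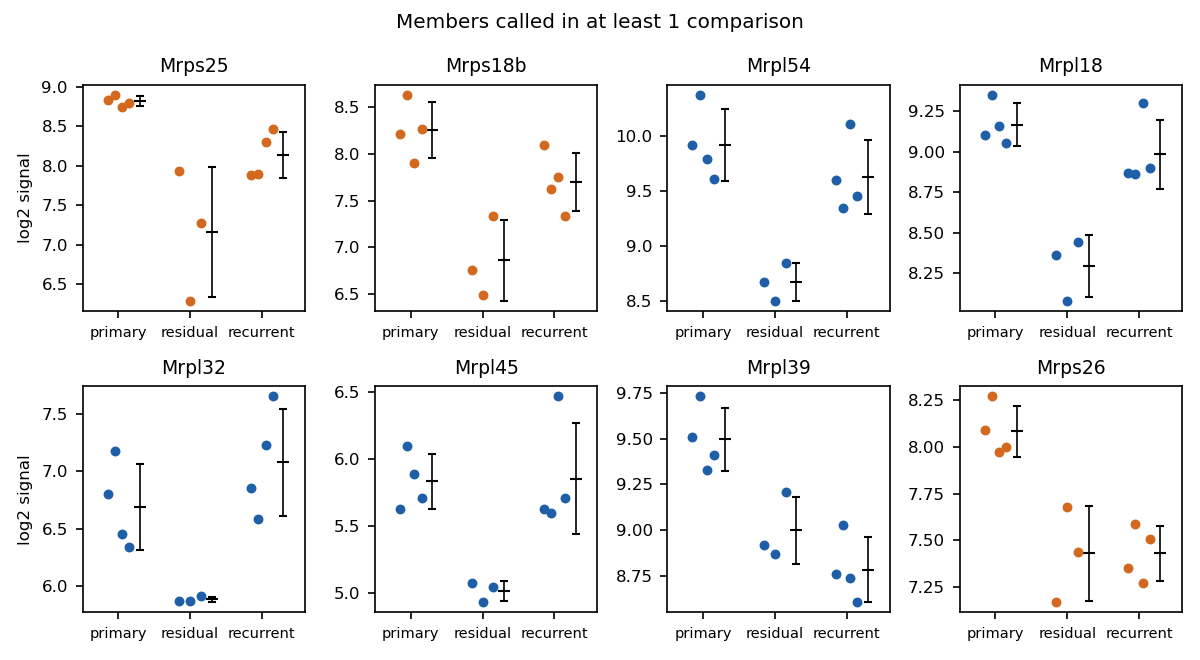
Log2 signal (y axis, own scale in each panel) of 8 genes named for a call in at least 1 comparison, by stage (x axis), with points for arrays and bars for the mean and SD. In the first 6 panels the residual mean is the lowest, and in the panels of Mrpl39 and Mrps26 the recurrent arrays lie with the residual arrays, below all primary arrays.

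Set side by side, the 3 comparisons share arrays and so are not independent. With means rounded as printed here, the mean in residual cells was the lowest of the 3 stages for 67 of 76 genes, ties not counted. The mean in primary cells was the highest for 61. Of the 29 genes called lower in residual cells, 27 had a recurrent mean between the residual and primary means, all rounded in the same way. Mrps26 was level with its residual mean after rounding, at 7.43, and Mrpl45 was not below its primary mean. Mrpl3 is an example of a recurrent level near the residual one, with differences of 0.34 from residual (adjusted p = 0.273) and -0.57 from primary cells (adjusted p = 0.087). Mrpl34 is an example of one near the primary level, with differences of 0.77 (adjusted p = 0.0582) and -0.10 (adjusted p = 0.887).

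Genes around the mitochondrial ribosome were set beside the family, in lists chosen by function. Their counts stand beside 7.61% of all genes, and 13% of genes above background, called lower in residual against primary cells. Of 5 mitochondrial ribosomal proteins with other names 1 was lower in residual than in primary cells: Dap3, a GTP-binding protein of the head of the small subunit, averaged 6.58 ± 0.19 on the residual and 7.39 ± 0.16 on the primary arrays (SD, n = 3 and 4, adjusted p = 0.00228). The list's median was -0.42. Complex I is the largest respiratory complex and contains subunits made by this ribosome. Of 34 genes of its subunits 5 were called lower, a share near that of genes above background, with a median of -0.36. As in the family, nearly all differences had 1 sign: 33 of 34 were negative. At an unadjusted p under 0.05, 16 were lower, where 13.9% of all genes were. In recurrent against residual cells 33 of 34 were positive and none was called. Among the 5 called lower in residual cells were Ndufv2 (-0.61), Ndufa9 (-0.60), Ndufa10 (-0.57) and Ndufv3 (-0.57), whose adjusted p ran from 0.0144 to 0.0454.

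Other lists hold enzymes and factors that serve the ribosome. Aminoacyl-tRNA synthetases of mitochondria, which charge its tRNAs, had 3 of 20 genes called lower, also near the background, with a median of -0.30. Those were Nars2 for asparagine (-1.13, adjusted p = 0.0049), Yars2 for tyrosine (-0.57, adjusted p = 0.0107) and Tars2 for threonine (-0.53, adjusted p = 0.0397). Of 26 genes of assembly and rRNA modification 3 were lower, Ddx28, an RNA helicase (-1.09), Noa1, a GTPase (-0.77), and Grsf1, a protein of mitochondrial RNA granules (-0.52), a count near the background share, and the median was -0.05. Nars2 and Noa1 were also higher in recurrent than in residual cells, by 0.86 and 0.71 (adjusted p = 0.0352 and 0.0319).

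No gene of 14 translation factors was called, with 3 lower and 1 higher at an unadjusted p under 0.05 and a median of -0.25. Gfm1, an elongation factor, differed by -0.52 (adjusted p = 0.0568) and Mtfmt, which formylates the initiator tRNA, by 0.73 (adjusted p = 0.0584). Replication and transcription of mitochondrial DNA had none of 9 genes called (1 lower and 1 higher at an unadjusted p under 0.05, median -0.26), with Polg2 at 0.85 (adjusted p = 0.124) and Polg at -0.36 (adjusted p = 0.155), both subunits of its polymerase. Regulators of nuclear genes for mitochondrial proteins likewise had none of 9 called (2 lower at an unadjusted p under 0.05, median -0.17), with Myc at -0.38 (adjusted p = 0.11) and Gabpb1, a subunit of the ETS-family factor GABP, at -0.53 (adjusted p = 0.179).

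Cytosolic ribosomal proteins were compared in the same way. Of 64 such genes 36 were lower in residual than in primary cells and none was called higher (1 at an unadjusted p under 0.05), with a median of -0.72. In recurrent against residual cells 16 were higher, with a median of 0.59, where 3.58% of all genes and 6.16% of genes above background were called higher. Of the 64, 42 to 49 read above background on the residual, 51 to 55 on the recurrent and 54 to 57 on the primary arrays. The medians of this list therefore include dim genes. Rps24 differed by -2.02 and Rps23 by -1.56 (adjusted p = 0.00208 and 0.0424). Rps15 and Rpl29 were also called, but their signals in residual cells, 3.49 ± 0.94 and 3.04 ± 0.41 (SD, n = 3), lay in the background range, so the size of their difference is not known. The family of mitochondrial ribosomal proteins was thus not alone in this direction, and no test of a difference between the lists was made.

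**Figure D5:**
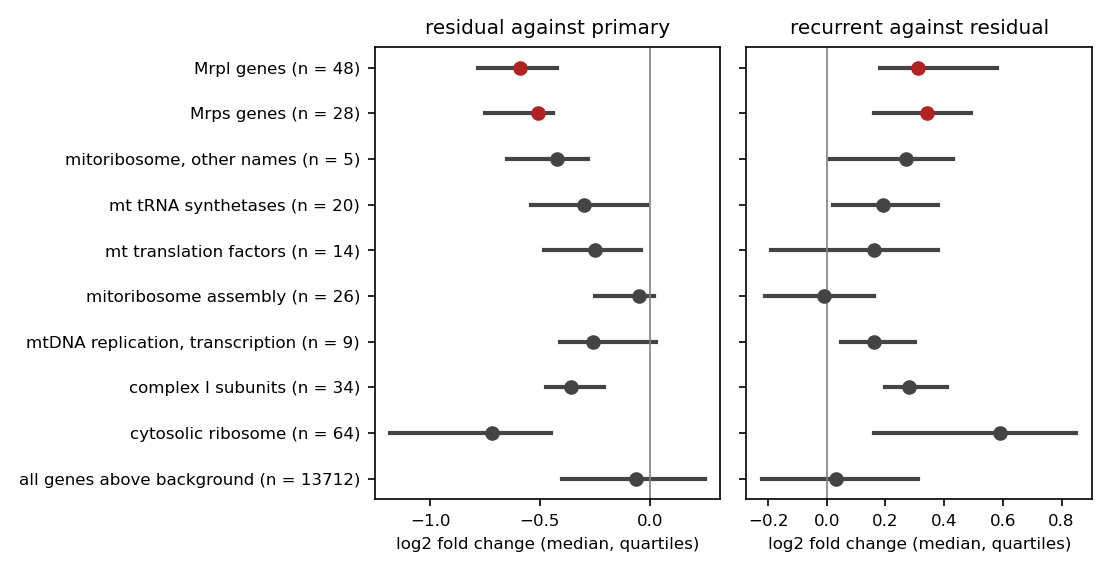
Median (point) and quartiles (bar) of the log2 fold change (x axes) of residual over primary cells and of recurrent over residual cells for Mrpl and Mrps genes (red) and for lists of related genes and all genes above background (grey). Mrpl and Mrps genes, at -0.59 and -0.51, lie between cytosolic ribosomal proteins at -0.72 and complex I subunits at -0.36.

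Other gene lists also differed between the stages. Over all genes 7.61% were called lower and 4.81% higher in residual against primary cells. For recurrent against residual cells the shares were 2.19% lower and 3.58% higher. All 16 genes of a mitosis list were lower in residual than in primary cells, with a median of -3.24, and all 16 were higher in recurrent than in residual cells, with a median of 2.97. Ube2c, a ubiquitin-conjugating enzyme of mitotic exit, differed by -5.09 and 4.19 in the 2 comparisons. Fibroblast markers were higher in residual than in primary cells for 8 of 10 genes, with a median of 2.57, and had a median of -0.02 in recurrent against residual cells. Their summed log2 signal was 58.9 to 65.7 on the primary, 80.7 to 93.8 on the residual and 81.2 to 90.4 on the recurrent arrays. Macrophage markers were lower for 4 of 9 genes, with a median of -1.19 and summed signals of 53.6 to 60.1, 45.4 to 51.9 and 47.9 to 56.7 at those stages. Of 7 epithelial markers Krt8 and Krt18 were called lower and Krt14 higher in residual than in primary cells. The differences were positive for 5 and negative for 2 of the 7, with a median of 0.75. Without overlap, 4 were higher and 2 lower, where 11.1% of all genes were higher and 13.7% lower. Endothelial markers had 0 to 2 of 8 and lymphocyte markers 0 to 1 of 9 genes above background on an array, Cd3e, Kdr and Emcn on none. The endothelial cadherin Cdh5 and the lymphocyte marker Klrb1c were above it on 10 of 11 arrays. Cdh5 read 10.13 on recurrent 3, the array high for several members, and 4.66 to 5.09 on the other recurrent arrays. The part of proliferation, of cell types and of primary 2 in the differences of the 76 genes was not tested, beyond the values without primary 2 given above.

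Members whose promoters held a motif were also set beside those without it, as a description. With the ETS motif 13 of 24 genes were lower in residual than in primary cells, with a median of -0.67, and without it 11 of 43, with a median of -0.50. For the NRF1 motif the counts were 5 of 16, with a median of -0.68, and 19 of 51, with a median of -0.55. No difference between genes with and without a motif was tested.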

How the data were processed

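Biotin-labelled cRNA of 11 samples was measured on Affymetrix arrays. The authors' deposited table held log2 signals in 24479 rows, 1 per Entrez Gene identifier, made with RMA and R 3.0.2 per the submitters' processing notes. RMA corrects background, normalizes across arrays and compresses differences between dim signals. No source used here gives the version of the probe annotation. Columns were matched to samples by identifier, and no scanner file was used.

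Probe sets were named from the platform's table (23281) or, by Entrez identifier, from the reference table of GRCm38.p6 (556 of the 1198 it lacked), and 642 had no name here. For 2 symbols with several probe sets the brighter was kept. All 76 names matched the reference.

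limma 3.58.1 in R 4.3.3 was fitted to all 23835 genes and 11 arrays with 3 groups and no covariate, with moderated two-sided tests and Benjamini-Hochberg adjustment over all genes, called at an adjusted p under 0.05. It was tested on simulated data. Array weights used statmod 1.5.0, and figures matplotlib 3.10.9 in Python 3.11.15.

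The members, the lists, the structural sites, the motifs and the alternatives were chosen with earlier results of these data known. Named were the 8 called members with the largest change per subunit in residual against primary cells, 6 per subunit in recurrent against residual cells and all called in recurrent against primary cells (or the 2 with the smallest p), up to 3 members of each site, members of opposite sign, and of each related list up to 4 called genes or the 2 with the smallest p. The markers Cdh1, Epcam, Cd3e, Kdr, Emcn, Cdh5 and Klrb1c were named outside this rule, for their presence or absence, and Mrpl24 to complete the positive differences. Alternatives were other scalings, filters, spread estimates and thresholds, the replicate number as a block, and leaving out each array.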

Additional observations from a re-analysis of the deposited data

Results flagged for a closer look

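In 64 groups of 4 arrays of the named members, 1 array was tested for a gap to the others above Dixon's 95% limit, and 5 groups passed, where chance flags about 1 in 20. Recurrent 3 was the array in 4 of them. It read 8.75 for Mrpl16 (the other recurrent arrays 7.74 to 7.82), 9.30 for Mrpl18 (8.86 to 8.90), 10.66 for Mrpl30 (10.49 to 10.52) and 6.47 for Mrpl45 (5.60 to 5.71). Primary 2 read 5.36 for Mrps27, against 5.09 on each of the other primary arrays. Because those arrays were level as printed, almost any gap would have passed the limit, and this flag says little. Over the whole family recurrent 3 was above the mean of the other recurrent arrays for 58 of 76 genes, by a median of 0.21, and residual 2 was above that of the other residual arrays for 25 of 76, with a median difference of -0.20. The excess on primary 2 was not limited to this family: 33 of 34 complex I subunits (median 0.32) and 47 of 64 cytosolic ribosomal proteins (median 0.22) read above the other primary arrays there. After a second quantile normalization 75 of 76 members still did, by a median of 0.34.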

How the results depend on the processing

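The direction of the family's median kept its sign in all alternatives of all 3 comparisons. For residual against primary cells the median was -0.43 after a second quantile normalization and -0.44 with arrays scaled to 1 interquartile range. The count of called members there was 14 after quantile normalization, 20 with arrays scaled, 42 with arrays centred on their medians, 38 with dim genes left out, 9 at an adjusted p under 0.01 and 16 to 32 without 1 array. For recurrent against residual cells it was 1 with only those groups fitted, 7 with dim genes left out, 0 at 0.01 and 0 to 6 without 1 array. For recurrent against primary cells it was 1 after quantile normalization, 0 at 0.01 and 0 to 2 without 1 array. Over all genes, 38.7% of calls in residual against primary cells were higher as deposited and 27.8% with arrays centred on their medians, and for recurrent against primary cells 45.3% and 35.4%.

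Same-numbered arrays of different groups did not deviate together (correlations of -0.0805 to 0.0172), so the numbers were not taken to pair samples. With the replicate block the counts were 18, 2 and 0 in the 3 comparisons.

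Small differences changed sign. Mrpl45, recurrent against primary, was -0.04 centred and -0.01 scaled, and -0.19 to 0.11 without 1 array (-0.19, -0.05 and -0.02 without recurrent 3, primary 1 and primary 4). Mrps26, recurrent against residual, was -0.09 after quantile normalization and -0.10 scaled, and -0.13 to 0.13 without 1 array (-0.13, -0.05 and -0.02 without residual 1, recurrent 2 and recurrent 4). Mrpl16, residual against primary, was 0.08 after quantile normalization and 0.05 scaled, and -0.14 to 0.04 without 1 array (0.04 without residual 3). In the same comparison Mrps27 ranged over -0.25 to 0.05 and Mrps36 over -0.09 to 0.86 without 1 array, both turned without residual 1. Mrps31 ranged over -0.14 to 0.30, and over -0.42 to 0.02 in recurrent against residual, turned without residual 2. In recurrent against primary, Mrpl34 ranged over -0.23 to 0.04 and Mrps30 over -0.14 to 0.00, at their upper ends without primary 2. The cause was not tested. Signals near background, such as those of Mrpl23 and Mrps10, limit what could be measured.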
